A study of Mus musculus with 6 samples.

Results

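The 9 genes described here encode Bcl2 family proteins and were taken by name from the GENCODE M1 annotation of mouse assembly mm9, in which they are 9 of 22367 protein-coding genes. They are the pro-survival genes Bcl2, Bcl2l1 and Mcl1 and the pro-death genes Bax, Bak1, Bcl2l11, Bmf, Pmaip1 and Bbc3. For each gene, every entry of 3 deposited chromatin immunoprecipitation sequencing (ChIP-seq) lists was collected over the gene body and 20 kb on each side, called the gene window below. The lists hold peaks of H3K27ac, a histone acetylation found at active promoters and enhancers, peaks of the B lineage transcription factor Pax5, and bins of H3K4me3, a histone methylation found at active promoters. All samples came from 1 kind of cell, bone marrow pre-B cells of C57BL/6 mice of both sexes, 6 to 14 weeks old, that lacked RAG and carried a rearranged IgM heavy chain transgene (RAG-/- µ+). Such cells cannot rearrange their own antigen receptor genes, so they are held at the pre-B stage by their genotype. The study's methods list Rag1-/- mice with a human heavy chain transgene but do not tie them to these libraries. Each list came from 1 library without a replicate, so no difference between genes was tested, and the number of mice behind a library was not given in the sources used here. Of the 6 samples, the 3 inputs were not used here.

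Bcl2 family proteins decide whether the outer mitochondrial membrane stays intact. Bcl2, Bcl-xL (from Bcl2l1) and Mcl1 hold the effectors Bax and Bak in check, the effectors open pores that release cytochrome c, and the BH3-only proteins Bim (from Bcl2l11), Bmf, Noxa (from Pmaip1) and Puma (from Bbc3) bind the pro-survival proteins or the effectors and tip the balance towards death. In B cell development the loss of Mcl1 or Bcl-xL costs early or immature lymphocytes, while Bim is known for removing autoreactive and growth factor deprived ones.

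The lists held 69345 H3K27ac peaks with a median width of 428 bp, 17979 H3K4me3 regions with a median width of 1025 bp after 25 bp bins were joined across gaps of up to 100 bp, and 15445 Pax5 peaks with a median width of 965 bp. A score accompanied each H3K27ac and Pax5 peak, on a scale that is not named, and is used below only to order peaks within a list. The B lineage markers Cd79a, Cd79b, Blnk, Ebf1 and Vpreb1 each had entries of all 3 lists within 1 kb of a start, and 0 of 5 T cell markers had any there. Pax5 was also listed at the start of 0 of 4 myeloid and 0 of 3 erythroid markers. H3K27ac was listed at 3 of the 4 myeloid starts (Mpo, Csf1r and Itgam, scores 8.01 to 11.4, against 28.0 to 101 at the B lineage markers named) and at 2 of the 3 erythroid starts (14.1 at Klf1 and 9.75 at Epor). H3K4me3 was listed at 2 of the 4 myeloid starts (325 bp at Csf1r and 775 bp at Itgam) and at the same 2 erythroid starts (1475 bp at Klf1 and 1050 bp at Epor). The part of other marrow cells in the values below was not tested.

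Each of the 3 lists had an entry in the windows of all 9 genes. Among all protein-coding genes, 68.3% had an H3K27ac peak in the window, 65.9% an H3K4me3 region and 58.2% a Pax5 peak. The share with all 3 together in the window was not counted. H3K27ac and H3K4me3 lay within 1 kb of an annotated start of the gene itself in 9 of 9 genes, against 49.0% and 53.0% of all genes. Pax5 lay there in 7 of 9 genes, the exceptions being Bcl2 and Bak1, against 38.1% of all genes. The same 7 genes had all 3 lists at a start, as did 34.9% of all genes. The windows held 114 H3K27ac peaks, 32 H3K4me3 regions and 28 Pax5 peaks in all. At least 2 Pax5 peaks were listed for 7 of the 9 genes (all but Bcl2 and Pmaip1) and for 31.3% of all genes, and at least 10 H3K27ac peaks for 6 of the 9 (all but Bax, Bak1 and Bcl2l11) and for 14.1% of all genes.

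**Figure D1:**
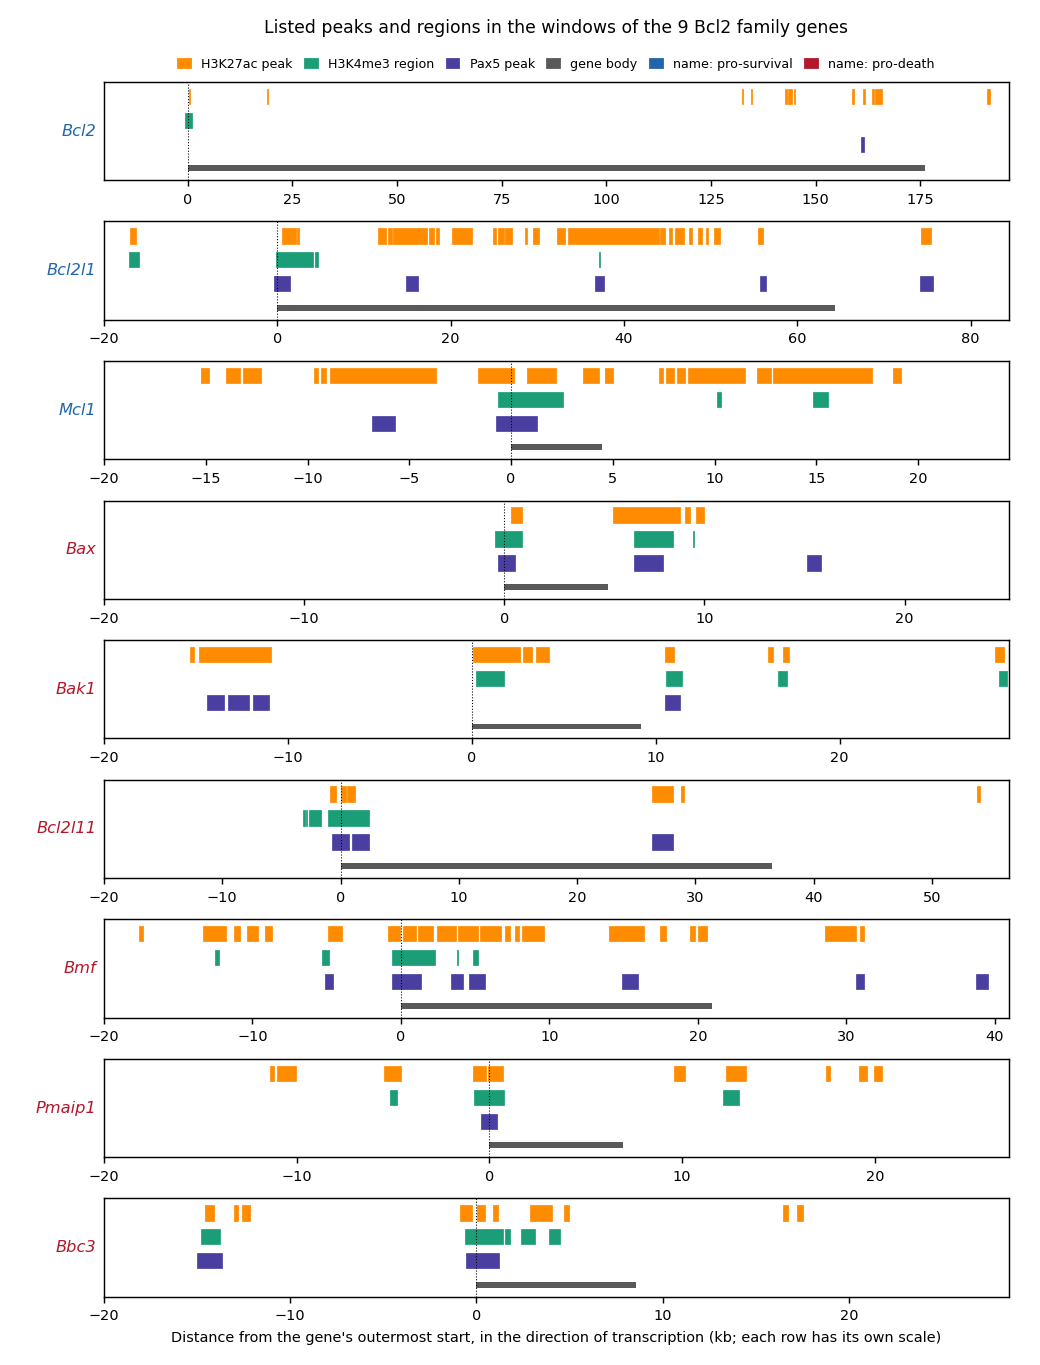
Entries of the 3 lists in the window of each gene, plotted in kb from the gene's outermost annotated start in the direction of transcription, with 1 row per gene and its own scale. All 3 lists appear in every row, from 4 H3K27ac peaks at Bax to 25 at Bcl2l1, and in the Bcl2 row the only Pax5 peak lies 161 kb from the start.

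Mcl1, which encodes a short-lived pro-survival protein, had the densest H3K27ac of the family. Its window of 44.5 kb (gene at chr3:95462643-95467099, plus strand) held 17 H3K27ac peaks, or 3.82 per 10 kb, at the 99.4th percentile of all protein-coding genes, and these covered 49.0% of the window. Only 2 of the peaks lay within 1 kb of the Mcl1 start, and another 2 lay near the start of the neighbour Adamtsl4 alone. The highest-scoring H3K27ac peak (86.2, rank 1225 of the list) spanned the start, and wide peaks of 5197 bp and 4878 bp were centred 6.31 kb upstream and 15.3 kb downstream of it, the latter within 1 kb of the Adamtsl4 start. One H3K4me3 region of 3200 bp covered the start, at the 95.0th percentile of genes with H3K4me3 at a start. Mcl1 also had the highest Pax5 score of the family. Its start peak scored 1741.55, rank 104 of 15445, and a second Pax5 peak 6.26 kb upstream scored 132.98, within the wide upstream H3K27ac peak. The 250 bases upstream of the Mcl1 start (chr3:95462393-95462642, plus strand, mm9) all lay inside the first Pax5 peak and are shown for that reason.
Mcl1 upstream: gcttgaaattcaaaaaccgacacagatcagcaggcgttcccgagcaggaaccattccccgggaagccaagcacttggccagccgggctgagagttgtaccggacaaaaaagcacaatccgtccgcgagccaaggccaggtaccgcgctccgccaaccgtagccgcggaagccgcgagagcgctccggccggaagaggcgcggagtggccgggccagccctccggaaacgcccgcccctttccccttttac
In this and the other sequences below, capitals mark matches on either strand to GCNTGAC (part of the sequence Pax5 is known to bind), TGTTTAC (a Foxo site) or CAGCTG (an E-box). Mcl1 held none of them in this stretch.

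Bcl2l1, the gene of Bcl-xL, had most of its entries within the gene. Its window (gene at chr2:152593052-152657464, minus strand, 64.4 kb long) held 25 H3K27ac peaks, 4 H3K4me3 regions and 5 Pax5 peaks. The H3K27ac density of 2.39 peaks per 10 kb was at the 95.2nd percentile of all genes, and 29.2% of the window was covered. Of the 25 peaks, 23 touched the gene body and only 2 lay within 1 kb of an own start. The H3K4me3 region at the start was 4250 bp long, the greatest H3K4me3 length at the starts of any of the 9 genes and at the 98.5th percentile of genes with one.

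The highest Pax5 score of the Bcl2l1 window belonged to an intron. That peak scored 1512.83 (rank 192), above the start peak at 1158.71 (rank 449), and its midpoint lay 34.0 kb from the nearest annotated Bcl2l1 start. It sat inside an H3K27ac peak of 10522 bp with a score of 55.1, the widest H3K27ac peak of the 114 in the family's windows, and overlapped an H3K4me3 region of only 100 bp. A second intronic Pax5 peak (287.04) lay 12.3 kb from the nearest start in an H3K27ac peak of 3964 bp (score 54.2). Another scored 93.96, and the remaining Pax5 peak (300.67) lay beyond the end of the gene, next to the start of Cox4i2. The central 200 bases of the intronic peak with the highest score (chr2:152620182-152620381, minus strand) are shown because they are the family's highest-scoring Pax5 peak away from a start.
Bcl2l1 intronic Pax5 peak: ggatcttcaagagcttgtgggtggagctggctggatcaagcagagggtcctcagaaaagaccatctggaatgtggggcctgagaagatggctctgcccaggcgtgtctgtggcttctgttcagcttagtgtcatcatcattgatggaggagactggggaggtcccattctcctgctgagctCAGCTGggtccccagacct
The capitals mark 1 CAGCTG match. The 300 bases around the peak's midpoint also held 1 TGTTTAC match, outside the bases shown, and no GCNTGAC.

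Bcl2, the founding pro-survival gene, differed in its values from the other pro-survival members. It is the longest gene of the 9 (chr1:108434755-108610851, minus strand, 176 kb), and its 12 H3K27ac peaks came to 0.555 per 10 kb, at the 60.8th percentile, and covered 2.91% of the window. Only 1 of them lay near the annotated start. It was 245 bp wide with a score of 8.16, at the 7.65th percentile of the genes with H3K27ac there. The H3K4me3 region at the start was 1650 bp long, at the 58.6th percentile, so the promoter carried both marks. Of the 12 H3K27ac peaks, 9 lay 133 to 165 kb into the gene, towards its 3′ end, and the highest score of the window (30.0) was among them. The single Pax5 peak of the window (109.25, rank 13235) was intronic in the same stretch, 161 kb from the start, and overlapped an H3K27ac peak. The Pax5 peak nearest to the start lay 44.7 kb from it, outside the window. The bases before the start (chr1:108610852-108611101, minus strand) are shown as the family's H3K4me3-marked promoter with the lowest H3K27ac score and no Pax5 peak.
Bcl2 upstream: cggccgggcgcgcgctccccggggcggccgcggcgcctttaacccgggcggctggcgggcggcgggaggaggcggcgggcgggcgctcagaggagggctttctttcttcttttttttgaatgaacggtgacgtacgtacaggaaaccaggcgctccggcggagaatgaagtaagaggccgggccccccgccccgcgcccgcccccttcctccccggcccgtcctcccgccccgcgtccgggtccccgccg
They held 74.8% G or C and 38 CpG, at the 95.3rd and 98.0th percentiles of all promoters, and none of the 3 marked motifs.

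Among the effectors, Bax (chr7:52717065-52722268, minus strand) had the fewest H3K27ac peaks of the family, 4 in a window of 45.2 kb or 0.885 per 10 kb. Its start carried 1 H3K27ac peak of 534 bp (score 15.9), an H3K4me3 region of 1350 bp, the smallest H3K4me3 length at the starts of any of the 9 genes, and a Pax5 peak of 130.93. The highest H3K27ac and Pax5 scores in the Bax window lay at a neighbour. The H3K27ac peak with a score of 93.4 and a Pax5 peak of 286.27 lay at the start of Ftl1, the ferritin light chain gene. A Pax5 peak of 104.04, below the Bax start peak, lay at the start of Gys1 without H3K27ac or H3K4me3. Without entries near starts of other genes, 2 H3K27ac peaks, 2 H3K4me3 regions and 1 Pax5 peak remained for Bax. Of these, 1 H3K27ac peak and 1 H3K4me3 region of 25 bp were still nearest to the Ftl1 start, 1680 and 1352 bp from it.

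Bak1, the gene of the other effector (chr17:27156755-27165954, minus strand), had no Pax5 peak at a start. Its start carried an H3K27ac peak of 2538 bp (score 41.7) and an H3K4me3 region of 1525 bp, and both began downstream of the outermost annotated start. These 2 entries lay within 1 kb of a Ggnbp1 start too and cannot be assigned to 1 of the 2 genes. A Pax5 peak with a score of 91.03 lay at another start of Ggnbp1. The remaining 3 Pax5 peaks, with scores of 324.28, 162.51 and 136.72, stood side by side 11.5, 12.7 and 13.9 kb upstream of Bak1 and all overlapped 1 H3K27ac peak of 3950 bp (score 39.4), with no H3K4me3 region. The central bases of the first (chr17:27177311-27177510, minus strand) are shown as an example of Pax5 with H3K27ac away from any coding start.
Bak1 distal Pax5 peak: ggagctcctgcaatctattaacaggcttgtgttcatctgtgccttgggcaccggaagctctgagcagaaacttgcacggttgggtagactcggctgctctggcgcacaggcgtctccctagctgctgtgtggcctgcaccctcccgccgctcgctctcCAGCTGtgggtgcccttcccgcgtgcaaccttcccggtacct
The capitals mark 1 CAGCTG match, and 1 was also found around the peak with a score of 136.72.

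Bcl2l11, the gene of the BH3-only protein Bim (chr2:127951774-127988283, plus strand), had its highest Pax5 and H3K27ac scores at the start. It had 6 H3K27ac peaks, of which 3 lay within 1 kb of an own start, at 0.784 per 10 kb of window (70.1st percentile). One H3K4me3 region of 3450 bp, at the 96.1st percentile of genes with one, covered the start, and 3 shorter regions of 25 to 975 bp lay 2.14 to 3.09 kb upstream without H3K27ac. The Pax5 peak at the start scored 1378.02 (rank 278), its midpoint within 1 bp of the annotated start. A second scored 264.26 at a start 1537 bp further in. Another (185.64) was intronic, 27.2 kb into the gene, and overlapped an H3K27ac peak of 1742 bp. The 250 bases before the start (chr2:127951524-127951773, plus strand) lay inside the first Pax5 peak.
Bcl2l11 upstream: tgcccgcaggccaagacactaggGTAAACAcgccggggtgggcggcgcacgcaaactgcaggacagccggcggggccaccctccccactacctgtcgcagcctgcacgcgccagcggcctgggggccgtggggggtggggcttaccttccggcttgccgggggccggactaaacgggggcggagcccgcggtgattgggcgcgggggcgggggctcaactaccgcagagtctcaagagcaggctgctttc
The capitals mark 1 Foxo match on the opposite strand. Such a match was found upstream of Bcl2l11 and Bak1 in the family and in 2.74% of all promoters of this length.

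Bmf, the gene of the BH3-only protein Bcl2-modifying factor (chr2:118354493-118375423, minus strand), had the most Pax5 peaks of the family. The 7 peaks came to 1.15 per 10 kb of window, at the 99.5th percentile of all genes, beside 21 H3K27ac peaks (3.45 per 10 kb, 98.8th percentile) that covered 31.3% of the window. The highest Pax5 score was not at the outermost start but 5.14 kb into the gene, at the start of a transcript annotated without a coding sequence, where a peak scored 1365.54 (rank 286). At the outermost start the Pax5 score was 223.95. The H3K27ac score there was 87.5, the highest at any start of the family, and the H3K4me3 region was 2875 bp long. A further Pax5 peak of 541.81 was intronic, 10.3 kb from the nearest start, in an H3K27ac peak of 2332 bp. Another 2, at 109.28 and 88.37, lay downstream of the gene, the second without H3K27ac or H3K4me3. The 2 highest-scoring peaks are shown side by side (chr2:118370185-118370384 and chr2:118359906-118360105, minus strand), since 1 lay at a start and the other in an intron.
Bmf internal start Pax5 peak: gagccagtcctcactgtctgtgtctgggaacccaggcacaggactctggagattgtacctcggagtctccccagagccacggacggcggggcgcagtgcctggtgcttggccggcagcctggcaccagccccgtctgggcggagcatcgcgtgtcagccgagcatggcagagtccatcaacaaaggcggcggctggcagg
Bmf intronic Pax5 peak: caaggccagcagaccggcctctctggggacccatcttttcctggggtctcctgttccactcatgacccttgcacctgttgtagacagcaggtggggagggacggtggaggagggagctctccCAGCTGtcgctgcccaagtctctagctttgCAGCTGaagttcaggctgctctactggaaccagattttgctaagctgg
The intronic sequence held 2 CAGCTG matches. Around the internal start, the only GCNTGAC match of the 28 Pax5 peaks lay 149 bases from the midpoint, outside the bases shown.

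Bbc3, the gene of Puma, a p53 target (chr7:16894965-16903554, plus strand), had 5 H3K4me3 regions, 1.03 per 10 kb (97.4th percentile), of which 4 lay at its 3 annotated starts. They summed to 3650 bp there. Its start H3K27ac score was 54.7 and its start Pax5 score 147.29, at the 21.2nd percentile of the genes with Pax5 at a start. A place 14.3 kb upstream carried all 3 lists again, with an H3K27ac score of 60.0, an H3K4me3 region of 1025 bp and a Pax5 score of 92.75. The nearest coding start to that Pax5 peak was that of Ccdc9, 8481 bp away. The bases before the Bbc3 start (chr7:16894715-16894964, plus strand) are shown as the only upstream sequence of the family with a GCNTGAC match.
Bbc3 upstream: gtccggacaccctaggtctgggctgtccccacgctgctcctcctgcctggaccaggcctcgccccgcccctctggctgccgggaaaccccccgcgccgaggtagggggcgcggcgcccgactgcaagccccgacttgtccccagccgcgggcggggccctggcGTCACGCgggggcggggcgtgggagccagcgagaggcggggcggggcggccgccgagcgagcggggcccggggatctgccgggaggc
They held 80.0% G or C, at the 98.6th percentile.

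For Pmaip1, the gene of Noxa and likewise a p53 target, 10 H3K27ac peaks (2.13 per 10 kb, 93.4th percentile), 3 H3K4me3 regions and 1 Pax5 peak were listed. The Pax5 peak (222.35, 41.2nd percentile of genes with one at a start) was centred 9 bp from the only annotated start, which lay inside both an H3K27ac peak (27.6) and an H3K4me3 region of 1550 bp. The 2 other H3K4me3 regions, of 375 bp 4.99 kb upstream and 825 bp 12.5 kb downstream, each overlapped an H3K27ac peak, with scores of 32.8 and 20.1. No Pax5 peak was listed at either.

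**Figure D2:**
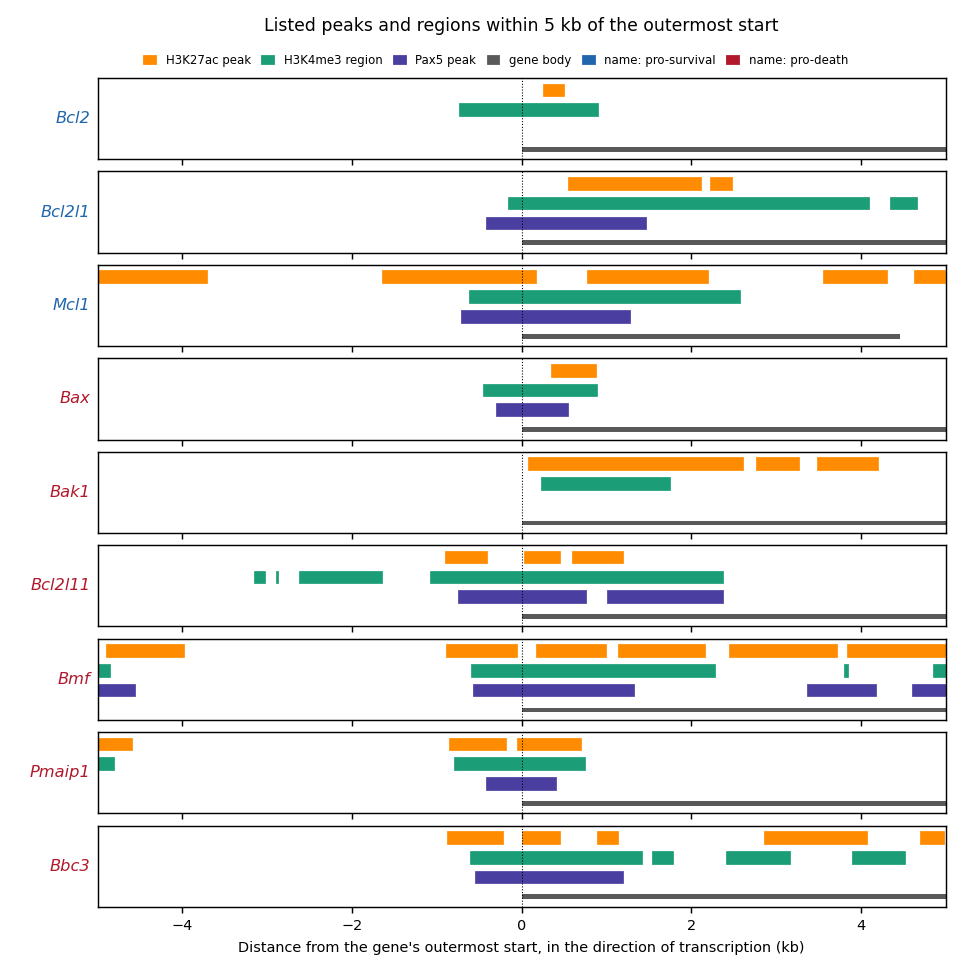
Entries of the 3 lists within 5 kb of each gene's outermost annotated start (dotted line, distance in kb in the direction of transcription). The H3K4me3 region crosses the start in 8 of 9 genes and H3K27ac in 2 of 9 (Mcl1 and Pmaip1), while Pax5 crosses it in 7 of 9.

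The lists were placed differently around the outermost starts, but their entries differ in width. H3K4me3 regions, joined from 25 bp bins, had a median width of 1025 bp, Pax5 peaks of 965 bp and H3K27ac peaks of 428 bp. The outermost start fell inside an H3K4me3 region in 8 of 9 genes (45.6% of all genes) and inside a Pax5 peak in 7 of 9 (32.8%). It fell inside an H3K27ac peak in 2 of 9 genes, Mcl1 and Pmaip1, against 20.9% of all genes. In the other 7 genes H3K27ac was listed within 1 kb of the outermost start but beside it. Of these, Bcl2l1, Bak1, Bmf and Bbc3 had other annotated starts inside an H3K27ac peak. The difference between the lists held over all genes too. Of those with H3K27ac within 1 kb of the outermost start, 45.3% had that start inside a peak. The shares were 90.1% for H3K4me3 and 91.6% for Pax5. The part of entry width and of the joining of bins in this difference was not tested. The length of H3K4me3 at the starts, summed over the regions within 1 kb of any start of a gene, fell into 2 ranges, each with pro-survival and pro-death genes. Bcl2l1, Bbc3, Bcl2l11, Bmf and Mcl1 had 3200 to 4250 bp, at the 95.0th to 98.5th percentile, and Bcl2, Pmaip1, Bak1 and Bax had 1350 to 1650 bp, at the 39.9th to 58.6th. No sum lay between 1650 and 3200 bp. The widest single region at a start did fall between them for Bbc3 (2025 bp) and Bmf (2875 bp), so the gap rests on the sum.

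**Figure D3:**
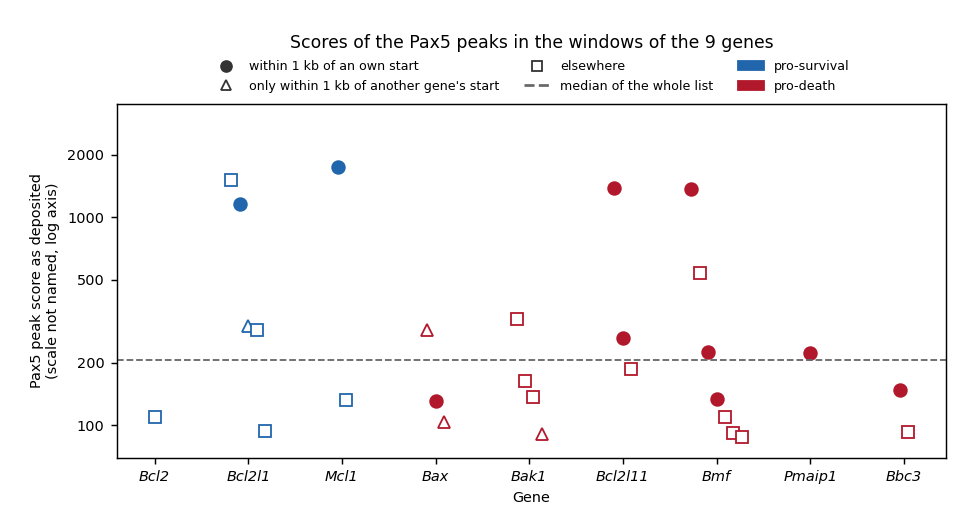
Score of each of the 28 Pax5 peaks by gene on a log axis, with filled circles for peaks within 1 kb of a start of the gene itself, triangles for peaks only near a start of another gene, squares for the rest, and a dashed line at the median of all 15445 peaks (207). The highest start peak of each of Mcl1, Bcl2l11, Bmf and Bcl2l1 and 1 intronic peak of Bcl2l1 lie above 1000, and the start peaks of Bax and Bbc3 and 1 of the 3 of Bmf lie below the line.

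The Pax5 scores of the family were spread over most of the list, from rank 104 to rank 15409. Of the 28 peaks, 13 scored above the median of the whole list (207), and the median of the 28 was 174. The highest scores at a start were 1741.55 for Mcl1, 1378.02 for Bcl2l11, 1365.54 for Bmf and 1158.71 for Bcl2l1, all at or above the 95.5th percentile of the 8513 genes with Pax5 at a start. Pmaip1, Bbc3 and Bax followed at 222.35, 147.29 and 130.93, between the 15.8th and the 41.2nd percentile. The 4 high values thus came from 2 pro-survival and 2 BH3-only genes.

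Most Pax5 peaks of the family overlapped H3K27ac by at least 1 bp, which does not place their midpoints in it. The midpoint of the highest-scoring one, at the Mcl1 start, lay between 2 H3K27ac peaks. H3K27ac overlapped 26 of the 28 (92.9%) and H3K4me3 15 (53.6%), where the whole list gave 79.3% and 61.0%. The 10 within 1 kb of an own start overlapped both marks without exception, and in the whole list 90.0% of the peaks near coding starts overlapped H3K27ac and 94.3% H3K4me3. Of the 18 elsewhere, 16 overlapped H3K27ac and 5 H3K4me3, or 88.9% and 27.8%. The whole list away from any coding start gave 67.7% and 24.9%, but the 2 sets are not alike. Of the 18, 4 lay near a start of another gene, and those at Ftl1 and Ggnbp1 overlapped H3K4me3. The Pax5 peaks without either mark were those at Gys1 in the Bax window and downstream of Bmf.

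Motif letters were counted on both strands in the 300 bases around each Pax5 midpoint. GCNTGAC was present in 1 of the 28 family peaks (3.57%), against 18.4% of all Pax5 peaks and 21.0% of the 10% of the list with the highest scores. TGTTTAC was found in 3 (10.7%, against 3.09%), CAGCTG in 9 (32.1%, against 24.4%) and GGAAG, the core of ETS factor sites, in 19 (67.9%, against 72.9%). Upstream of the starts, over 250 bases, GCNTGAC was found for 1 of 9 genes (8.73% of all promoters), CAGCTG for 2 (11.8%), TGTTTAC for 2 (2.74%) and GGAAG for 6 (64.0%). None of these strings contains another, and the absence of one from a window says only that the letters were not there.

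The comparison of pro-survival with pro-death genes set 3 genes against 6. The median window was 104 kb in the former and 48.9 kb in the latter, and the part of window length in the densities below was not tested. The pro-survival windows held 54 H3K27ac peaks, 8 H3K4me3 regions and 8 Pax5 peaks, and the pro-death windows 60, 24 and 20. Per 10 kb of window, the median for H3K27ac was 2.39 in pro-survival and 1.94 in pro-death genes, with ranges of 0.555 to 3.82 and 0.784 to 3.45. For H3K4me3 the medians were 0.383 and 0.738 (0.0463 to 0.675 and 0.523 to 1.03). For Pax5 they were 0.450 and 0.538 (0.0463 to 0.479 and 0.213 to 1.15). By share of the window covered, the medians were 29.2% and 11.5% for H3K27ac, 5.58% and 6.70% for H3K4me3, and 6.28% and 6.57% for Pax5. The ranges of the classes overlapped for each list, so no list placed all genes of 1 class above those of the other. Over all protein-coding genes the medians per 10 kb were 0.346, 0.158 and 0.117, and Bcl2 alone of the 9 lay below them for H3K4me3 and Pax5. The pro-survival and pro-death values at starts overlapped likewise, with H3K27ac scores of 8.16 to 86.2 and 15.9 to 87.5 and H3K4me3 lengths of 1650 to 4250 bp and 1350 to 3650 bp.

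**Figure D4:**
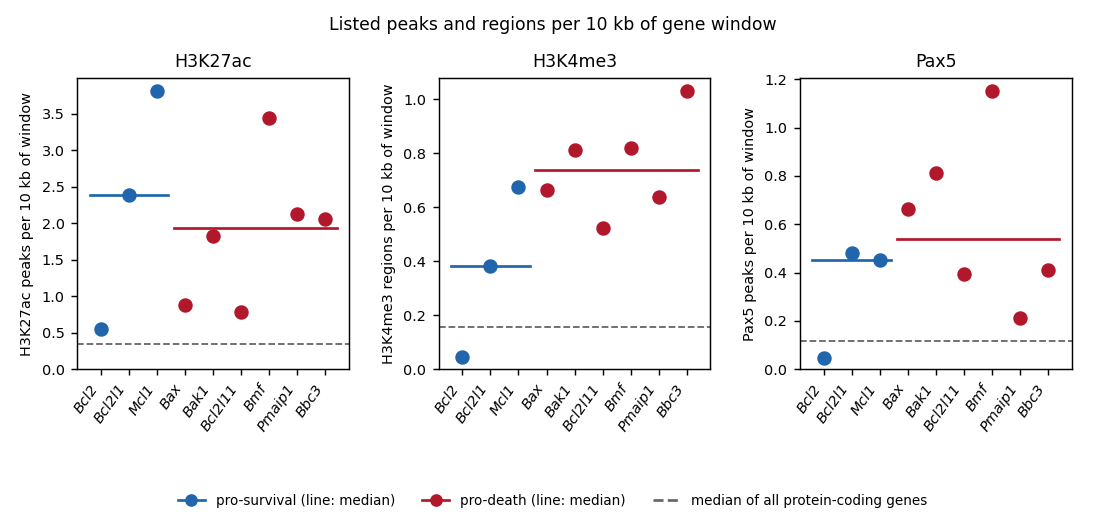
Entries per 10 kb of gene window for each gene and list, blue for pro-survival and red for pro-death genes, with the class medians as solid lines and the median of all protein-coding genes as a dashed line. The classes overlap in each panel, Mcl1 (3.82) and Bmf (3.45) are highest for H3K27ac, and Bcl2 lies under the dashed line for H3K4me3 and Pax5.

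The places of the peaks relative to starts were counted by class as well. In the pro-survival windows 5 of 54 H3K27ac peaks lay within 1 kb of an own start, 3 only near a start of another gene and 46 near none. In the pro-death windows these were 18, 3 and 39 of 60. Of the 8 pro-survival Pax5 peaks, 2 lay at an own start and 1 only near a start of another gene. Of the 20 pro-death peaks these were 8 and 3. In the whole list, 8029 of 15445 Pax5 peaks lay within 1 kb of any protein-coding start. The whole H3K27ac list was not counted in this way. Bmf and Bbc3, with 8 and 3 annotated starts, supplied 11 of the 18 pro-death H3K27ac peaks at starts. Bcl2l1, with 10 annotated starts, had 2 such peaks, and Bak1, with 5, had 1.

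Beyond the 9 genes, 23 other apoptosis genes were examined in the same way. H3K27ac was listed at a start of 19, H3K4me3 of 17 and Pax5 of 10 of them, where 49.0%, 53.0% and 38.1% of all protein-coding genes had them, so the Pax5 count was near the background. The genes with all 3 lists at a start included the BH3-only genes Bad and Bid, the apoptosome genes Apaf1, Cycs and Casp9, the inhibitor genes Birc3 and Birc5, and Diablo and Htra2, whose products antagonise inhibitors of apoptosis. The highest Pax5 scores at the starts of these named genes were 1469 for Casp9 and 1082 for Diablo and the lowest was 179 for Bad. No list had an entry at the starts of Bcl2l10, Bok and Hrk. The pro-survival genes Bcl2a1a, Bcl2a1b and Bcl2a1d had H3K27ac at a start (scores 14.5 to 19.4) but neither H3K4me3 nor Pax5, and because these copies are nearly identical and how reads shared between them were treated in these lists is not stated, their values are uncertain. All 7 apoptosome and caspase genes and all 6 inhibitors and antagonists had H3K27ac and H3K4me3 at a start, and 4 of each had Pax5. Of the 10 other family genes, 6, 4 and 2 had H3K27ac, H3K4me3 and Pax5 there, the last 2 counts being shares below those of all genes.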

How the data were processed

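H3K27ac, H3K4me3 and Pax5 ChIP-seq of RAG-/- µ+ pre-B cells was analysed from the lists that the authors deposited, 1 library each, prepared with 18 PCR cycles. The submitters' processing notes name Bowtie 0.12.9, MACS 1.4.2 and mm9. The study's methods describe ChIP-seq reads that the authors removed duplicates from, trimmed and aligned to mm9 with another Bowtie version, retaining reads that mapped equally well to as many as 3 places. Whether those steps made the deposited lists is not stated, and MACS settings for these lists were not given in the sources used here. The deposited H3K27ac and Pax5 lists give each peak a score, the caller's own number on a scale the authors do not name. The deposited H3K4me3 list holds other content, 25 bp bins without a value, with a threshold that is not stated, so its regions have a length only. The files do not give the depth of any library, so it is unknown and counts carry no interval.

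Bins were joined across gaps of up to 100 bp. Entries were assigned to a gene window with an overlap of at least 1 bp and to a start at up to 1 kb from any annotated transcript start of the gene. Percentiles are over all 22367 protein-coding genes of GENCODE M1, or, for values at starts, over those with an entry there. Sequences were read from NCBIM37 (mm9), and motifs were counted on both strands. Python 3.11.15, numpy 2.4.6 and matplotlib 3.10.9 were used, and the interval counting was tested on simulated data. Genes named are the 9 members, pathway genes with all 3 lists or none at a start, markers, and neighbours whose start lay near an entry, and some genes of these lists are not reported here. Bcl2a1a, Bcl2a1b and Bcl2a1d were named after their values were seen. Members and gene lists were chosen with earlier results of these data known. Window flanks, midpoint assignment, the higher-scoring 50% of a list, bin gaps, start distances and the removal of entries near other genes' starts were varied.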

Additional observations from a re-analysis of the deposited data

How the results depend on the processing

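No paired analysis was possible because the lists hold no replicates. With 1 library per list, no replicate could be left out and no test was made. Counts of genes with an entry in the window or at a start moved least: the 9 of 9 for H3K27ac and H3K4me3 and the 7 of 9 for Pax5 at starts were the same at 500 bp, at 2.5 kb and at the outermost start alone, and all 9 genes had each list in windows with flanks of 5 kb or 50 kb. With the higher-scoring 50% of the Pax5 list, 7 of 9 genes had a peak in the window, Bcl2 and Bbc3 having none. Of 66 alternatives over 18 counts and medians, 56 stayed within 1.5 times the value reported and 10 moved further. Flanks of 5 kb gave 36 H3K27ac and 13 Pax5 peaks in pro-death windows and 5 H3K4me3 regions in pro-survival windows, and raised the pro-death H3K4me3 median to 1.24 per 10 kb. Flanks of 50 kb gave 105 pro-death H3K27ac peaks and 14 pro-survival H3K4me3 regions. The higher-scoring 50% of the lists left 23 pro-survival and 36 pro-death H3K27ac peaks and 5 pro-survival and 8 pro-death Pax5 peaks. Narrower windows, wider windows and shorter lists change such counts by construction. Without entries near starts of other genes, 51 and 56 H3K27ac peaks, 7 and 21 H3K4me3 regions and 7 and 17 Pax5 peaks remained in the pro-survival and pro-death windows. Depth limits all absences: a place without an entry lay below a threshold that is not known for these lists.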
